A study of Mus musculus with 6 samples.

Results

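The thick ascending limb is the nephron segment that reabsorbs salt without water, and 8 of its genes were followed here: Umod, Slc12a1, Kcnj1, Bsnd, Cldn10, Cldn16, Cldn19 and Ppp1r1a. They were taken by symbol from a table of 26971 features in RNA from kidney cortex, and all 8 were among the 14274 genes that passed the filter on low counts. The mice were male C57BL/6, and 3 libraries came from kidneys after IRI (titles CLK_IRI), the usual abbreviation for ischaemia-reperfusion injury, and 3 from kidneys after IRI with IVCC (titles Cong_IRI), the group with renal congestion. All kidneys were taken at day 1 after surgery and all had IRI, so the comparison is between injured kidneys, and no uninjured kidney was analysed here. The labels expand neither CLK nor IVCC and give no age. Whether each library is from its own animal is not stated either, and p-values speak only of the spread between these libraries. The comparison asks what congestion adds to the injured kidney.

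In this segment the cotransporter NKCC2, encoded by Slc12a1, takes up sodium, potassium and chloride from the tubule lumen. ROMK, encoded by Kcnj1, returns potassium to the lumen, and the exit of chloride from the cell needs barttin, the product of Bsnd. The positive lumen voltage that results drives cations between the cells, sodium through pores of a Cldn10 isoform and calcium and magnesium through pores that need the Cldn16 and Cldn19 products. Umod encodes uromodulin, the most abundant protein of normal urine, and Ppp1r1a encodes an inhibitor of a protein phosphatase. Several of these genes are also active elsewhere: Kcnj1 in principal cells, Bsnd in thin limb and intercalated cells, Umod in the early distal convoluted tubule, and another Cldn10 isoform in the proximal tubule.

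All 8 genes are annotated as protein-coding on GRCm38. Umod spans 119462711 to 119479282 of chromosome 7, Bsnd 106483456 to 106492283 of chromosome 4 and Ppp1r1a 103530279 to 103538003 of chromosome 15, each on the minus strand. Slc12a1 spans 125152505 to 125230002 of chromosome 2 and Kcnj1 32372493 to 32399197 of chromosome 9, both on the plus strand. The claudin genes are also on the plus strand: Cldn10 spans 118787908 to 118875489 of chromosome 14, Cldn16 26463135 to 26482765 of chromosome 16 and Cldn19 119255414 to 119262438 of chromosome 4. The annotated gene Gm44588 covers 539 exon bases of Umod (19.5%) on the other strand, and Gm12927 covers 90 exon bases of Cldn19 (2.11%). The library kit keeps strand, but whether the counting used it is not given in the labels, and reads of such partners cannot then be told apart. Gm12927 itself held 2 to 20 counts per library, against 301 to 925 for Cldn19.

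RefSeq start sites of GRCm38.p6 matched 6 of the 8 genes, all but Bsnd and Ppp1r1a. The stretches before the start are printed for Slc12a1, Kcnj1 and Umod, the 3 genes with the highest mean level per exon length, and for the first start of Cldn10, the gene with the narrowest range over the libraries. Each runs 5′ to 3′ on the gene's strand and leaves out bases that GENCODE annotates as exon. The Kcnj1 start used by RefSeq lies inside the GENCODE gene. They are in lower case throughout, since none of the 3 motifs named after them occurred in them.
Slc12a1, chr2:125152350-125152504, plus strand: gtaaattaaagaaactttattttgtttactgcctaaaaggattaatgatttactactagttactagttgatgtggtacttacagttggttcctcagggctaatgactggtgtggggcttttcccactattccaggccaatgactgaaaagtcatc
Kcnj1, chr9:32393735-32393984, plus strand: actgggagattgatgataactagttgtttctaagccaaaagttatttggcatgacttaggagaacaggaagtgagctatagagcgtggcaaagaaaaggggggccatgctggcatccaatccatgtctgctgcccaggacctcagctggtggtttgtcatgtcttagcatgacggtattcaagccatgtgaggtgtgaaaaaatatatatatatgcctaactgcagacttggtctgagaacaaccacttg
Umod, chr7:119479283-119479512, minus strand: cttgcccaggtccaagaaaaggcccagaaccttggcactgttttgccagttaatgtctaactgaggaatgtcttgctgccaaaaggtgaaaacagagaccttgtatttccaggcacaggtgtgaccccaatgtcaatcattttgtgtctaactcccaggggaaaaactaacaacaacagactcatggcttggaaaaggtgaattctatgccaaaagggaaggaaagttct
Cldn10 first start, chr14:118787621-118787870, plus strand: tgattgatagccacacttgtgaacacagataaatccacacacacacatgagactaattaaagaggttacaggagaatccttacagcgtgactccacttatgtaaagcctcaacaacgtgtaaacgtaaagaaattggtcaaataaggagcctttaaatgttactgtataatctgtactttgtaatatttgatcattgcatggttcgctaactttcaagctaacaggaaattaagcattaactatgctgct
The oestrogen-related receptor letters AAGGTCA, the AP-2 letters GCCNNNGGC and the TATA letters TATAAA were searched on both strands of the 250 bases before each start and occurred in 0 of the 8 windows of these genes. Of 32841 such windows before RefSeq starts, 4.08%, 13.7% and 12.4% held them. The second Cldn10 start has 72.4% GC in its 250 bases, against 36% for the first. Counts per gene do not separate transcripts from the 2 starts, so the Cldn10 values sum the isoforms of the thick ascending limb and the proximal tubule.

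Total counts ranged from 10865860 to 14350425 per library. Replicate 1 of both groups stood apart. Markers of tubular injury (Havcr1, Lcn2, Spp1, Clu, Krt8, Krt18, Krt20 and Vcam1) summed to 48124.1 and 65320.4 CPM in its IRI and congested libraries. In the other 4 they summed to 6501.5 to 18428.9 CPM, where CPM are counts scaled by library size and a TMM factor. Spp1 made up most of each sum, at 40191.5 and 59193.7 CPM in replicate 1 and 4782.5 to 15304.5 CPM in the other 4. Proximal tubule markers of S1 and S2 summed to 3415.9 to 7864.8 CPM and podocyte markers to 279.2 to 351.3 CPM, so markers of cortex were present in each library. Markers of thin limbs and inner medulla were also present, at 58.1 to 496.3 CPM. In bulk tissue, fewer cells of a type and less RNA per cell cannot be told apart.

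The 8 genes together held 0.137% of counts in IRI replicate 1 (95% Wilson interval 0.135 to 0.139), 0.618% in replicate 2 and 0.656% in replicate 3. In the congested kidney they held 0.194%, 0.358% and 0.688% in replicates 1, 2 and 3. Such intervals cover counting error only and were far narrower than the spread between libraries. The 2 replicate 1 libraries were the lowest, and the groups overlapped. By gene, replicate 1 was below replicates 2 and 3 in both groups for 7 of 8, where this held for 29.1% of genes tested, and both its libraries were below the 4 others for 6 of 8, against 19.8%.

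Umod had the highest level per exon length in all 6 libraries, at 1132.6 ± 620.4 CPM per kb of merged exons in IRI and 1009.7 ± 552.3 in congested kidney (SD, n = 3 each). Averaged over the 6 libraries Slc12a1 followed at 120.0 CPM per kb, then Kcnj1 at 88.5, Ppp1r1a at 77.8 and Cldn10 at 65.5. Bsnd, Cldn16 and Cldn19 were lowest at 17.9, 11.3 and 10.8. Only 2 steps in this order held in all 6 libraries, Umod above Slc12a1 and Cldn10 above Bsnd. Slc12a1 exceeded Kcnj1, and Ppp1r1a exceeded Cldn10, in 3 of 6 libraries, so those neighbours did not differ beyond their spread. Slc12a1 was the second highest of the 8 in IRI replicates 2 and 3, at 163.1 and 260.9 CPM per kb, and the sixth in IRI replicate 1, at 8.83. In congested replicates 1, 2 and 3 it stood at 18.2, 77.5 and 191.4 CPM per kb.

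**Figure D1:**
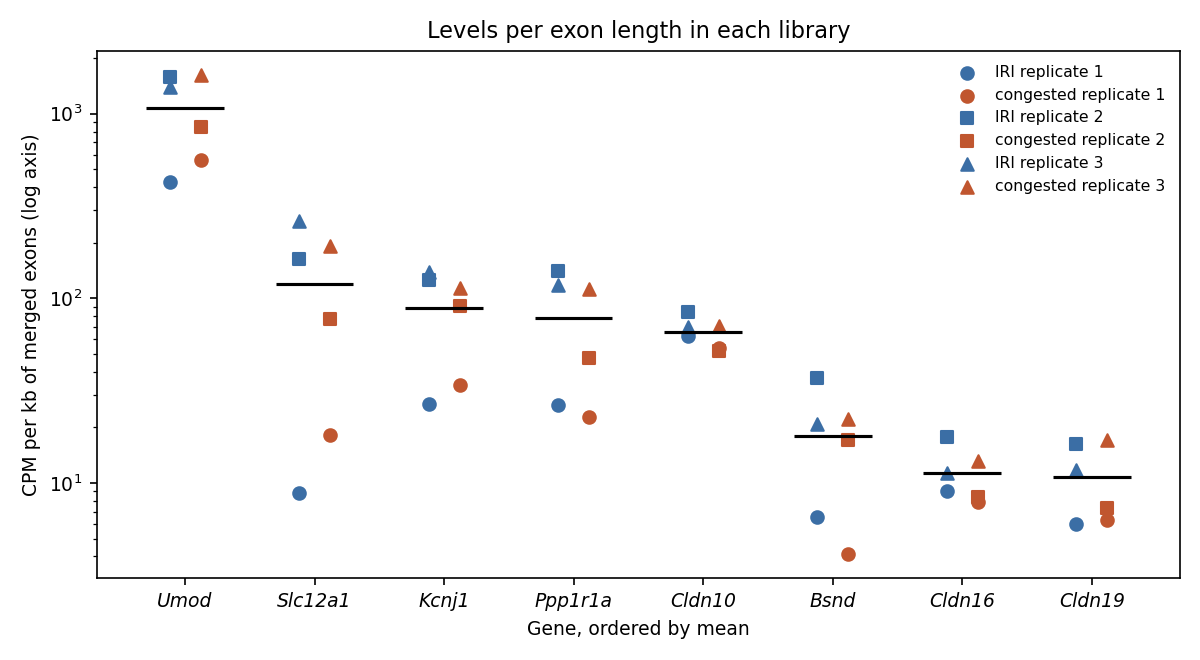
CPM per kb of merged exons (log axis) for the 8 genes, ordered by their mean over the 6 libraries, with blue points for IRI, orange points for congested IRI kidney, the shape for the replicate number and a bar at the mean. Umod lies above the other genes in each library, and Slc12a1 spans 8.83 to 260.9 CPM per kb while Cldn10 spans 51.9 to 84.1.

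No gene of the thick ascending limb group was called between congested and non-congested IRI kidney. Slc12a1 read 50.9, 940.0 and 1503.4 CPM in replicates 1, 2 and 3 of IRI and 105.0, 446.4 and 1102.8 CPM in the congested replicates. The groups overlapped, with replicate 1 lowest and replicate 3 highest in both. The estimate for congested against IRI kidney was -0.59 on the log2 scale (SE 1.12, 95% interval -3.21 to 2.02), at an adjusted p of 0.945 by edgeR.

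Kcnj1 read 89.5, 419.4 and 465.2 CPM in replicates 1, 2 and 3 of IRI and 112.6, 301.6 and 381.4 CPM in the congested ones. The order of the replicates was that of Slc12a1, and the groups overlapped. Its log2 fold change was -0.29 (SE 0.65, adjusted p = 0.953 by edgeR). Bsnd lay at 18.0, 101.9 and 57.3 CPM in IRI and at 11.4, 46.8 and 61.3 CPM in congested kidney, a log2 difference of -0.57 (SE 0.72, adjusted p = 0.933 by edgeR). Replicate 1 was again lowest in both groups, but the IRI library with the most Bsnd was replicate 2.

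The claudin genes varied least. Cldn10 read 161.2, 218.0 and 181.9 CPM in replicates 1, 2 and 3 of IRI and 139.9, 134.4 and 183.1 CPM in congested ones, so the groups overlapped and replicate 2 was both the highest and the lowest library. Its log2 fold change was -0.29 (SE 0.23, 95% interval -0.83 to 0.24, adjusted p = 0.933 by edgeR), the narrowest interval of the 8. Cldn16 lay at 10.6, 20.7 and 13.3 CPM in IRI and at 9.23, 9.87 and 15.5 CPM in congested kidney, a log2 difference of -0.37 (SE 0.33, adjusted p = 0.933 by edgeR). Cldn19 lay at 25.4, 69.0 and 50.2 CPM in IRI and at 27, 31.2 and 72.4 CPM in congested kidney, a log2 difference of -0.15 (SE 0.48, adjusted p = 0.967 by edgeR). For both genes the highest IRI library was replicate 2 and the highest congested library replicate 3.

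Umod read 1171.4, 4359.8 and 3856.7 CPM in replicates 1, 2 and 3 of IRI and 1544.6, 2333.0 and 4492.2 CPM in the congested ones. The 6 values interleaved between the groups, and the log2 fold change was -0.17 (SE 0.57, adjusted p = 0.969 by edgeR). Ppp1r1a lay at 34.5, 182.7 and 153.8 CPM in IRI and at 29.8, 61.8 and 147.1 CPM in congested kidney. It had the lowest estimate of the 8, a log2 difference of -0.64 (SE 0.71, adjusted p = 0.933 by edgeR), with overlapping groups.

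**Figure D2:**
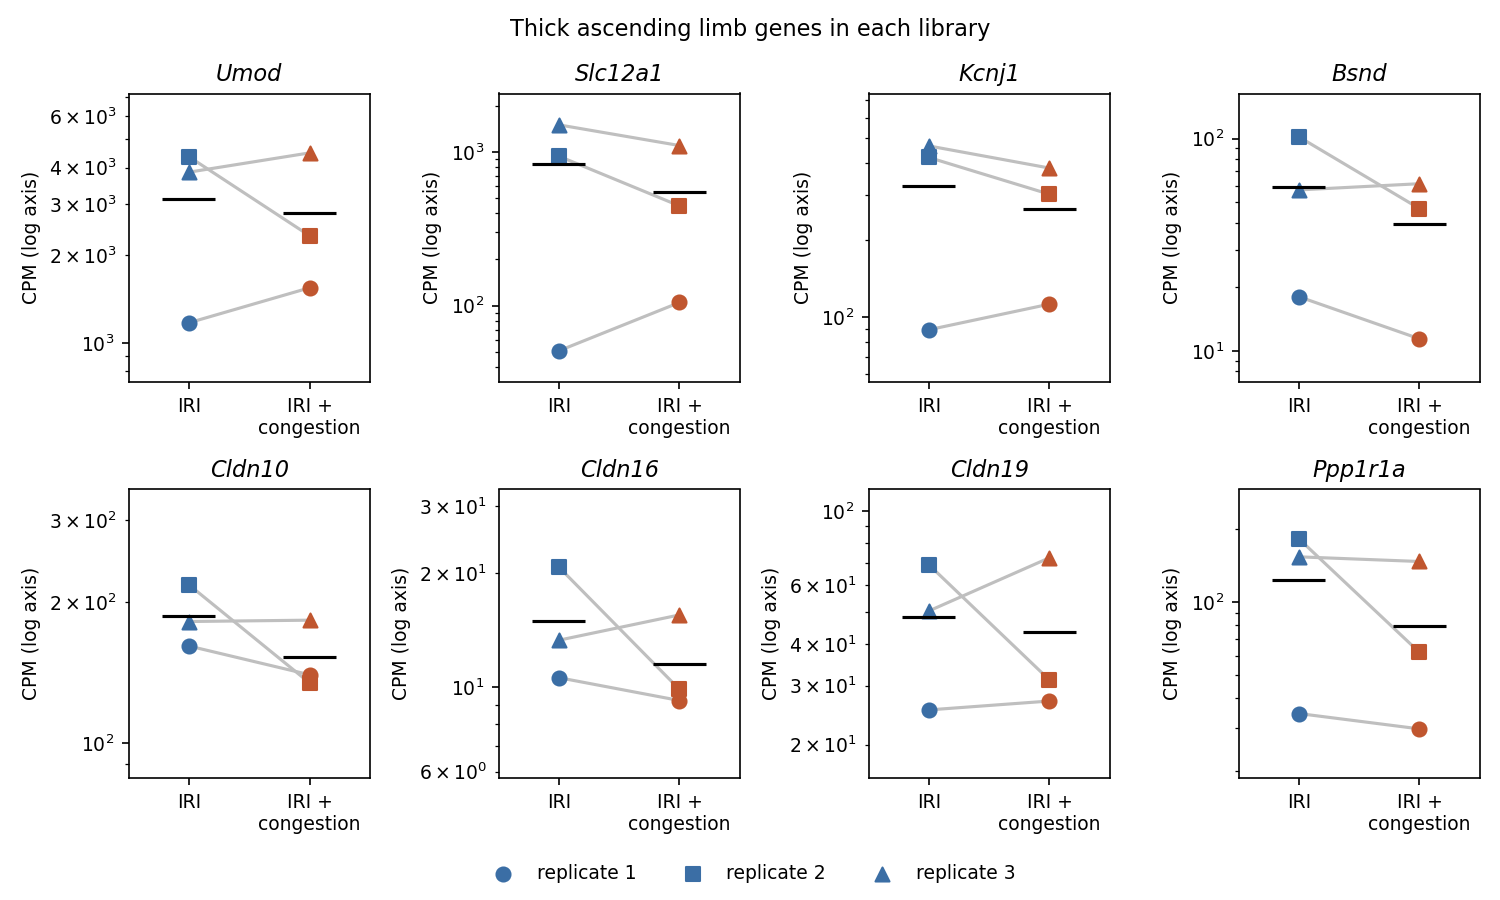
CPM (log axis, its own range in each panel) of each gene in the IRI and congested libraries, with the shape for the replicate number, grey lines joining equal numbers and black bars at the group means. The groups overlap for all 8 genes, and replicate 1 is lowest in both groups for 7 of them, all but Cldn10.

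Across the 8 genes the median log2 fold change was -0.33, against 0.00 over all genes tested. All 8 lay below 0, as did 50.4% of genes tested. edgeR called 0 of 8 at an adjusted p under 0.05 and 0 of 14274 genes in all (0%), and 0 of 8 had an unadjusted p under 0.05, where 285 genes did (2%). Neither DESeq2 (354 genes at an unadjusted p under 0.05) nor limma-voom (285) called a gene. The groups did not overlap for 0 of 8, against 6.49% of genes tested.

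Within equal replicate numbers the lower values came mainly from replicate 2. There all 8 genes were lower in the congested library, by a median log2 difference of -1.07 (range -1.56 to -0.48), where 49.5% of genes tested were lower. The largest differences were -1.56 for Ppp1r1a and -1.14 for Cldn19, and Bsnd, at -1.12, and Slc12a1, at -1.07, followed. In replicate 1 the congested library was lower for 4 of 8 (49.7% of genes tested), with a median of -0.06. Slc12a1 was higher there by 1.04 and Umod by 0.40, whereas Bsnd differed by -0.66. In replicate 3 it was lower for 3 of 8 (50.3% of genes tested), with a median of 0.05, from -0.45 for Slc12a1 to 0.53 for Cldn19. Ppp1r1a was the 1 gene of the 8 that was lower in all 3 pairs, as were 13.1% of genes tested, and its replicate 3 pair differed by -0.06.

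Marker lists were read in the same replicate 2 pair. The thin limb and inner medulla markers had a median difference of -1.46 between those 2 libraries, and their summed level was 208.9 CPM in the IRI and 58.1 CPM in the congested library. Slc14a2 of that list, a urea transporter gene named after its values were seen, lay at 119.5 and 12 CPM and made up most of that difference in the sum. The log2 differences of the 5 genes ranged from -3.30 for Slc14a2 to -0.14 for Slc4a11. Over the 6 libraries that list summed to 90.8 to 496.3 CPM in IRI and 58.1 to 298.8 CPM in congested kidney, and 0 of its 5 genes was at 0 in any library. The other lists of the thick ascending limb had median differences of -0.29 (channels and pumps), -0.16 (signalling) and -0.13 (transcription factors) in that pair, nearer to 0 than the -1.07 of the 8 genes. The macula densa list had 1.20, but it holds 3 genes. Over the 6 libraries Nos1 of that list lay at only 0.238 to 2.56 CPM and Pappa2 at 0 to 2.41 CPM. The median difference was -0.73 for principal cell genes, -0.44 for intercalated cell genes, -0.48 for proximal S3 genes, 0.00 for distal convoluted tubule genes and 0.35 for proximal S1 and S2 genes. The part of tissue sampling in the thick ascending limb values was not tested.

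When equal replicate numbers were blocked in the model, 0 of 8 genes were called by edgeR, and the median log2 fold change was -0.24 (0.01 over all genes). The blocked value was -0.61 for Ppp1r1a (SE 0.30) and -0.56 for Bsnd (SE 0.25), both at an edgeR adjusted p of 0.577, and between -0.35 and -0.09 for the other 6. The 95% intervals with the block were -1.04 to 0.68 for Slc12a1, -0.65 to 0.36 for Kcnj1 and -0.74 to 0.56 for Umod. A log2 difference of -1 lay outside the blocked interval of Kcnj1 and of Umod and inside that of Slc12a1. Without the block the intervals were -1.81 to 1.22 for Kcnj1 and -1.50 to 1.16 for Umod, and both included -1. The exclusion thus rests on treating equal replicate numbers as pairs. At an unadjusted p under 0.05 stood 0 of 8 genes and 7.06% of all genes tested.

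**Figure D3:**
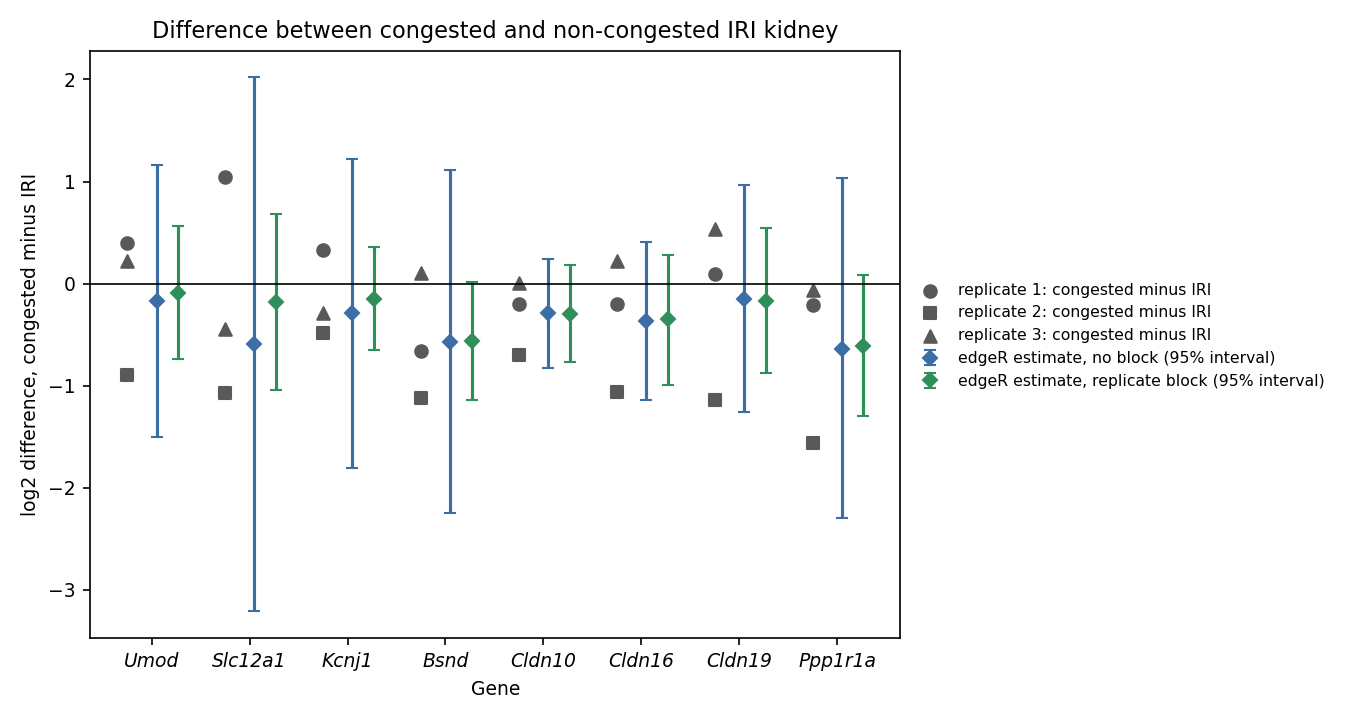
Log2 difference of congested minus IRI kidney for each gene: grey points for the 3 pairs of equal replicate number, and edgeR estimates with 95% intervals without (blue) and with (green) the replicate block. Every interval drawn includes 0, and the replicate 2 pair gives the lowest value for each of the 8 genes.

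Leaving out single libraries turned the direction of 5 genes in the fit without the block. With IRI replicate 2 left out, the estimate was 0.15 for Umod, 0.08 for Bsnd and 0.20 for Cldn19, and the median of the 8 was -0.06. Without IRI replicate 3 it was 0.02 for Umod, 0.16 for Slc12a1 and 0.06 for Kcnj1, with a median of -0.21. Without congested replicate 1 it was 0.13 for Umod, 0.08 for Kcnj1 and 0.11 for Cldn19, with a median of -0.11, and without congested replicate 2 it was 0.05 for Cldn19. The lowest medians were -0.71, with congested replicate 3 left out, and -0.64, with IRI replicate 1 left out. Cldn10, Cldn16 and Ppp1r1a stayed below 0 in each of these 6 fits, from -0.45 to -0.17, -0.64 to -0.05 and -1.43 to -0.24. edgeR called 0 of 8 in each of them. Such fits leave the replicate numbers unequal between the groups, and some of these genes differed between the numbers. With a number left out of both groups, under the block, Bsnd stayed below 0 (-0.93 to -0.27). Without replicate 2 in both groups, Umod, Slc12a1, Kcnj1, Cldn16 and Cldn19 lay above 0.

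The difference that passed a test was the one between replicate numbers. Slc12a1, Kcnj1, Bsnd and Ppp1r1a differed between the 3 numbers, with edgeR adjusted p of 0.00953, 0.0109, 0.0117 and 0.0248 in a fit that also holds the group. These 4 of 8 stand beside 8.01% of genes tested. All 4 had higher fitted levels in replicates 2 and 3 than in replicate 1, and 4.41% of genes tested were called with that direction. Slc12a1 was 8.52-fold and 16.2-fold higher in replicates 2 and 3 than in replicate 1, the widest contrast of the 8. Kcnj1 was 3.52-fold and 4.15-fold higher, Bsnd 4.91-fold and 4.23-fold, and Ppp1r1a 3.47-fold and 4.73-fold.

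Umod was 2.43-fold and 3.07-fold higher in replicates 2 and 3, with an edgeR adjusted p of 0.0555 that missed the threshold. Cldn19 was 1.87-fold and 2.37-fold higher (adjusted p = 0.145 by edgeR), Cldn16 1.49-fold and 1.48-fold (0.441) and Cldn10 1.15-fold and 1.22-fold (0.718). The tight junction genes thus had smaller estimates than the transporter genes, a contrast that was not tested as such. From the lowest to the highest library Slc12a1 spanned 29.5-fold, a log2 range of 4.88 that 0.294% of genes tested exceeded. Bsnd spanned 8.85-fold and Cldn10 1.62-fold, the latter narrower than 72.3% of genes tested.

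With replicate 1 left out of both groups, 0 of 8 genes differed between replicates 2 and 3 (adjusted p = 0.193 by edgeR for Slc12a1 and 0.999 for each of the other 7), where 1.10% of genes tested did. With replicate 2 left out, 6 of 8 differed, all but Cldn10 and Cldn16, against 14.6% of genes. With replicate 3 left out 2 of 8 did, Kcnj1 and Bsnd, against 36.5% of genes. Each of these fits rests on 4 libraries and 1 residual degree of freedom. What the replicate number stands for is not given in the labels.

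**Figure D4:**
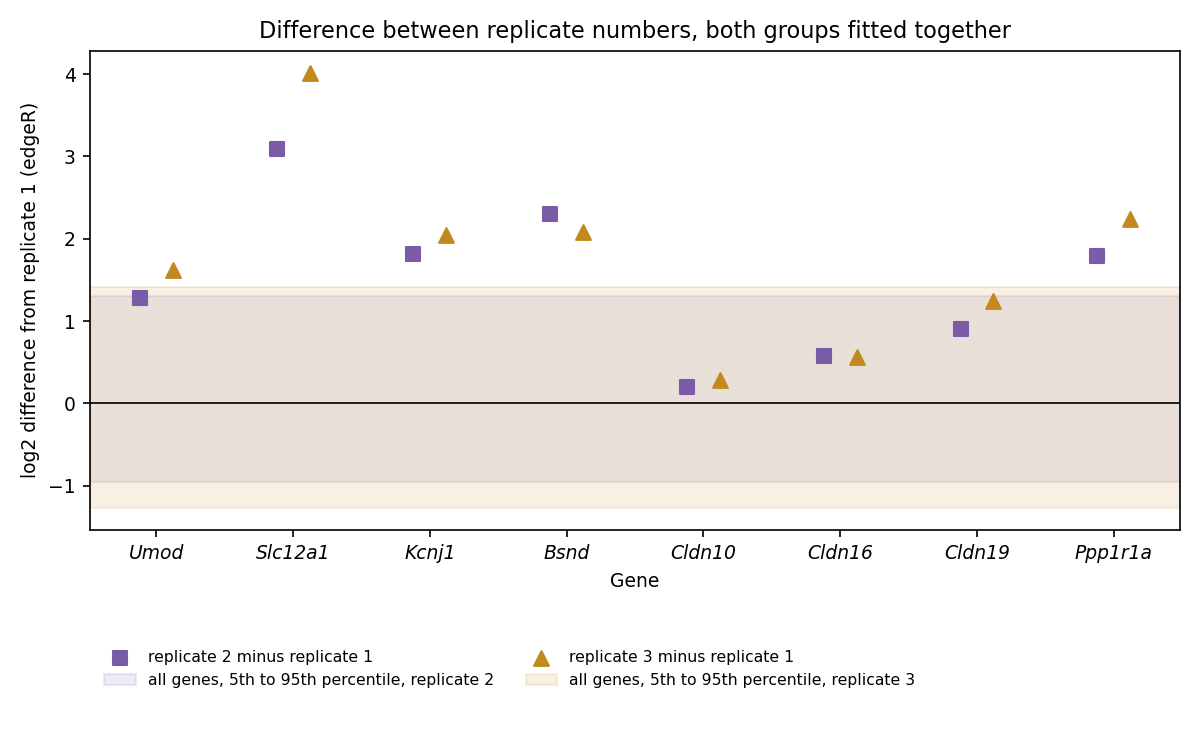
Log2 difference of replicates 2 (squares) and 3 (triangles) from replicate 1 for each gene, fitted over both groups, with shaded bands from the 5th to the 95th percentile of all genes tested. Slc12a1 (3.09 and 4.02), Kcnj1, Bsnd and Ppp1r1a lie above the bands, and Cldn10, Cldn16 and Cldn19 lie inside them.

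Other genes of the same transport system were read from lists. Of 10 channel, pump and exchanger genes, 0 were called between the groups, 6 lying below 0 with a median of -0.15. Fxyd2, a subunit gene of the sodium pump, had a log2 fold change of -0.52 (SE 0.30) at an adjusted p of 0.933 by edgeR. It read 2138.8, 2730.9 and 1490.0 CPM in replicates 1, 2 and 3 of IRI and 1475.4, 1304.4 and 1645.9 CPM in congested kidney, so the groups overlapped, and it did not pass the test between replicate numbers (adjusted p = 0.842 by edgeR).

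Of 14 genes for hormone receptors, WNK and SPAK signalling and related regulators, 12 were tested, with 0 called between the groups, 7 below 0 and a median of -0.07. Stk39, which encodes the kinase SPAK that acts on salt cotransporters, stood at -0.22 (SE 0.23) and Cul3, a ubiquitin ligase scaffold gene, at 0.20 (SE 0.21), both at an edgeR adjusted p of 0.933. Between replicate numbers 4 of 12 differed, beside 8.01% of genes tested, named here after their values were seen: Egf, Casr, Klhl3 and Wnk4. Egf, the gene of a growth factor made in the thick ascending limb and distal convoluted tubule, lay at 16.8, 391.7 and 813.5 CPM in IRI and at 13.8, 267.8 and 590.2 CPM in congested replicates 1, 2 and 3 (adjusted p = 0.00122 by edgeR). The calcium-sensing receptor gene Casr lay at 2.62, 23.8 and 52.3 CPM in IRI and at 6.18, 36.5 and 50.9 CPM in congested kidney (adjusted p = 0.00353 by edgeR). Both were lowest in replicate 1, as Slc12a1 was.

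Of 8 transcription factor genes of the distal nephron, 0 were called between the groups, with 4 below 0 and a median of -0.10. Irx2 stood at -0.58 (SE 0.48) and Esrrg at 0.44 (SE 0.39), both at an edgeR adjusted p of 0.933. Between replicate numbers Irx1, Esrrb and Pou3f3 differed, also named after their values were seen, with edgeR adjusted p of 0.0101, 0.00806 and 0.029. Irx1 lay at 6.67, 28.2 and 69.7 CPM in IRI and at 9.76, 14.3 and 46.9 CPM in congested replicates 1, 2 and 3. Of 3 macula densa genes, those of the cells that end this limb, 3 of 3 lay above 0 between the groups and 0 were called, with Nos1 at 0.62 (SE 0.72, adjusted p = 0.933 by edgeR) and Ptgs2 at 0.47 (SE 0.79, adjusted p = 0.941 by edgeR). Nos1 and Pappa2, the third gene, were near the floor, at no more than 2.56 and 2.41 CPM in any library. Ptgs2, the cyclooxygenase gene also induced by injury, differed between replicate numbers in the other direction, at 9.45, 2.47 and 2.29 CPM in IRI and 13.7, 3.80 and 2.35 CPM in congested kidney (adjusted p = 0.00931 by edgeR).

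Genes of other segments also differed between the replicate numbers, beside 8.01% of genes tested: 3 of 7 of the distal convoluted tubule, 5 of 7 of principal cells, 4 of 6 of intercalated cells, 5 of 8 of proximal S1 and S2 and 5 of 6 of proximal S3. Of thin limb and inner medulla genes 2 of 5 differed, with median log2 differences of -0.39 for replicate 2 and 1.42 for replicate 3 from replicate 1. For the first 5 lists the median log2 differences of replicate 3 from replicate 1 were 1.06, 1.61, 1.34, 1.39 and 2.85, against 1.83 for the 8 thick ascending limb genes and 0.01 over all genes. Tubular injury genes differed in the other direction, 7 of 8 with a median of -2.0, while 0 of 5 podocyte genes differed. The low thick ascending limb levels of replicate 1 thus stood beside lower median levels of the first 5 of these lists, and no test here set these genes apart from those. Neutrophil markers were also highest in replicate 1, at 65.7 CPM in IRI and 198.8 CPM in congested kidney against 4.32 to 15.4 CPM in the other 4 libraries. The part of injury and leukocyte RNA in the thick ascending limb values was not tested.

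**Figure D5:**
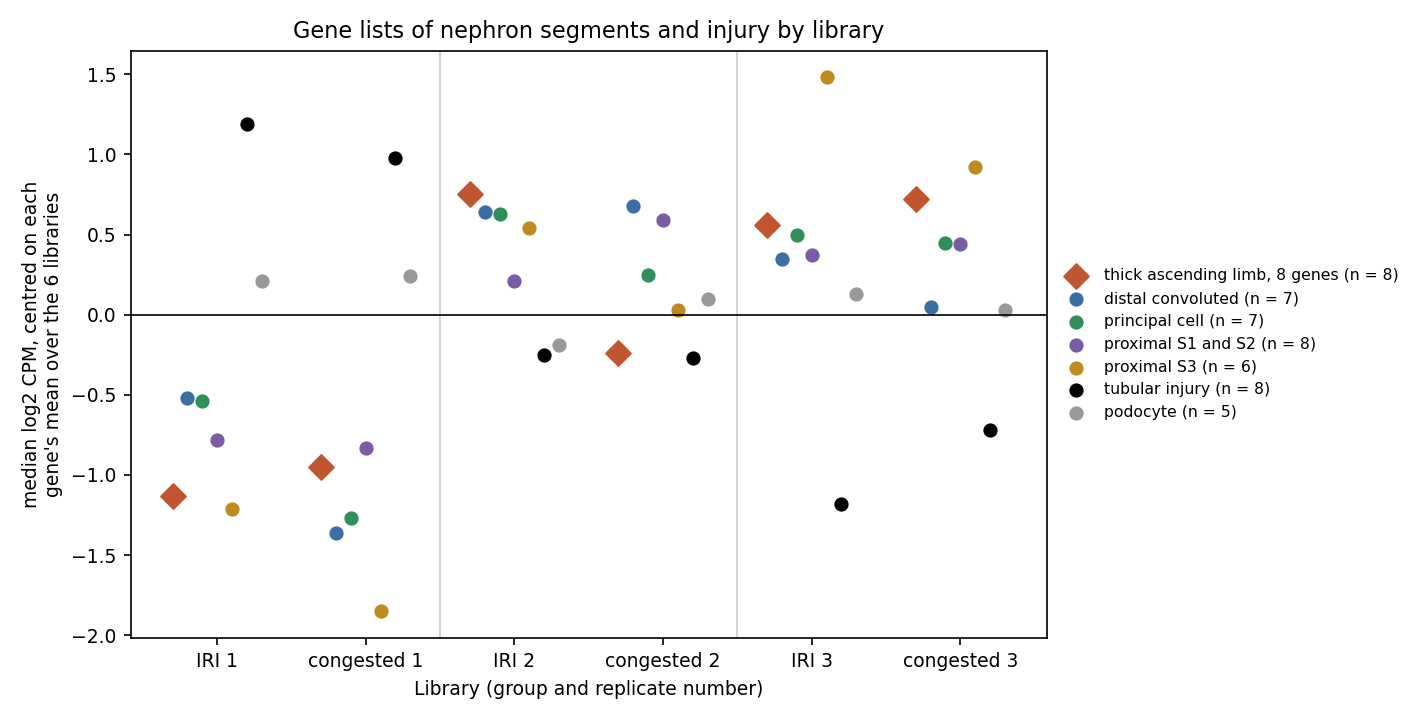
Median log2 CPM of 7 gene lists in each library, each gene centred on its mean over the 6 libraries, with diamonds for the 8 thick ascending limb genes and n for the genes tested in each list. The diamonds lie at -1.13 and -0.95 in replicate 1, at 0.75 and -0.24 in replicate 2 and at 0.56 and 0.72 in replicate 3, while the injury genes lie at 1.19 and 0.98 in replicate 1.

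The 8 genes did not share 1 pattern to the same degree. Likeness was taken as the root mean square difference between profiles of log2 CPM over the 6 libraries, each centred on its own mean. Umod was nearest to the mean of the other 7, at 0.16, and Kcnj1 and Ppp1r1a stood at 0.29 and 0.30, Cldn19 at 0.37 and Bsnd at 0.45. Cldn16 and Cldn10 stood at 0.61 and 0.76, with flatter profiles, and Slc12a1 at 1.19, with a steeper one. Of all genes tested, 88.2% had a smaller distance than Slc12a1, 31.3% than Cldn10, 12.9% than Cldn16 and 0.028% than Umod. In these shares each of the 8 was measured to the mean of the other 7. Genes outside the group were measured to the mean of all 8, so the references differ. Relative to Slc12a1 within a library, Umod was higher by a log2 count ratio of 4.52 in IRI replicate 1 and of 1.36 in IRI replicate 3, so the ratio itself changed between libraries. The 5 genes outside the group with the nearest profiles were Airn, Ybx2, D430019H16Rik, Gcgr (the glucagon receptor gene) and Dcst1, at 0.10, 0.10, 0.15, 0.16 and 0.17 from the mean of the 8. Their log2 fold changes between the groups were -0.31, -0.31, -0.38, -0.33 and -0.31. These values follow in part from the choice, since the profiles compared hold the libraries of both groups. Gcgr lay at 6.43, 20.3 and 21.0 CPM in IRI and at 5.19, 10.2 and 22.6 CPM in congested replicates 1, 2 and 3, and the other 4 were below 10 CPM in every library.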

How the data were processed

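Mouse kidney cortex RNA, prepared with a stranded mRNA kit per the labels' protocols, was counted per gene in 6 libraries, 3 per group by their titles. The deposited table holds raw counts, 1 column per library, as the values show. Per the submitters' processing notes, STAR 2.7.10a, featureCounts, Subread and GRCm38 were used by the authors, with no role stated; the annotation, strand and multimapping settings: not given in the sources used here. Total counts of 10865860 to 14350425 per library set the counting precision. Replicates differed beyond sampling noise (chi-square per degree of freedom 18.8 to 194).

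The test was edgeR 4.0.16 (R 4.3.3) on the deposited counts (TMM, filterByExpr with minimum count 10 and minimum total 15, robust quasi-likelihood F test, Benjamini-Hochberg over 14274 genes, calls at an adjusted p under 0.05). CPM are TMM-scaled, log2 CPM used a prior count of 2, and standard errors are the log2 fold change over the root of F. Models, merged exons and overlaps came from GENCODE of GRCm38, and promoter windows from RefSeq. Fits were tested on simulated data.

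Replicate numbers 1 to 3 occur in both groups without a stated meaning. Deviations from group means correlated across genes at 0.724, 0.342 and 0.429 for equal numbers, and on this check alone equal numbers were treated as pairs; IRI replicate 2 with congested replicate 3 also gave 0.401. The replicate test took both replicate coefficients of the model with group.

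The genes, the 16 lists, the tests and the naming rule were chosen with earlier results of these data known. Named were the 8 genes, 2 per other list by smallest p (0 were called) and the 5 nearest profiles; of these, genes on which no thick ascending limb result turned are given only with the other values. Some genes of the lists, and some motifs, are not reported here. Alternatives were other scaling factors, filters, DESeq2 1.42.0, limma-voom (limma 3.58.1), no robust estimation, the block, a length and GC trend (mgcv 1.9.3, basis 6, 95.5% of tested genes with a model) and libraries left out.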

Additional observations from a re-analysis of the deposited data

How the results depend on the processing

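All 8 thick ascending limb genes stayed below 0 and uncalled under other scaling factors, other filters, DESeq2, limma-voom, no robust estimation, the replicate block and the block with a length and GC trend removed; of 160 values of single genes under alternatives, 15 changed direction and 3 became calls, each where libraries were left out. The median of the 8 was -0.22 to -0.34 under the alternatives with all libraries, and total counts moved the median of all genes to 0.095, with 39.4% of genes below 0 against 50.4%. With the replicate block edgeR called 0 genes, as without it, at a smallest adjusted p of 0.577, and changed no other call; DESeq2 with the replicate block called 10 genes, 0 of the 8 among them. With single libraries left out, 0 genes were called and the median of the 8 ranged from -0.71 to -0.06; with a replicate number left out of both groups under the block, which keeps 1 residual degree of freedom, 12, 9 and 5458 genes were called without numbers 1, 2 and 3 (0 to 5458 in all), 0 to 3 of the 8 were called, and the median ranged from -0.51 to 0.02. The 3 were Bsnd (-0.93), Cldn10 (-0.45) and Cldn16 (-0.66), without replicate 3. That fit called 5458 of 14453 genes tested, a share close to 3 of 8, so these calls do not set the 3 genes apart. Over single libraries left out the log2 fold change ranged from -0.69 to 0.15 for Umod, -1.59 to 0.16 for Slc12a1, -0.73 to 0.08 for Kcnj1, -1.02 to 0.08 for Bsnd, -0.73 to 0.20 for Cldn19, -0.81 to 0.04 for Airn, -0.71 to 0.04 for Ybx2, -0.74 to 0.04 for Dcst1, -1.04 to 0.05 for Gcgr, -1.89 to 0.67 for Aqp4, -1.70 to 0.06 for Cyp7b1, -0.50 to 0.01 for Foxi1, -0.05 to 0.57 for Nphs1, -0.63 to 1.47 for Ptgs2, -0.70 to 1.62 for Spp1 and -0.11 to 0.96 for Vcam1. Without replicate 2 in both groups, with the block, it was 0.31 for Umod, 0.29 for Slc12a1, 0.02 for Kcnj1, 0.01 for Cldn16, 0.31 for Cldn19, 0.10 for D430019H16Rik and 0.03 for Ybx2; the cause was not tested. Cul3 was -0.08 with the block and the length and GC trend removed. Genes differing between replicate numbers were 1144 in the fit reported, 3231 with no filter (12% of 26971 genes tested, the cause not tested) and 1854 by DESeq2's likelihood ratio test, and 159, 2093 and 5270 without replicate numbers 1, 2 and 3; the 8 thick ascending limb genes gave 4 in the fit reported and 0, 6 and 2 without those numbers. With no filter and by DESeq2, Umod and Cldn19 joined the 4, and Umod did without robust estimation (adjusted p = 0.0496 by edgeR). Counting error did not limit the 8 genes, whose lowest count was 103 (Cldn16); the spread between 3 libraries did.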

Other observations

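Genes of other segments and cell types, read from the same fit, gave 0 calls between the congested and IRI groups. Principal cell genes lay below 0 in 7 of 7, with Fxyd4 at -0.80 (SE 0.35) and the water channel gene Aqp2 at -0.77 (SE 0.61), both at an edgeR adjusted p of 0.933. Proximal S3 genes lay below 0 in 6 of 6, with Cyp7b1 at -0.86 and Slc22a7 at -0.77, while 6 of 8 proximal S1 and S2 genes lay above 0, with Slc5a12 at 0.79 and Slc4a4 at 0.52. Of 7 distal convoluted tubule genes 5 lay below 0, with S100g at -0.89. The groups did not overlap for 1 of the 7, the calcium channel gene Trpv5 (log2 fold change 0.91, SE 0.30, adjusted p = 0.933 by edgeR). It lay at 13.3 to 18.8 CPM in IRI and 21.9 to 43.0 CPM in congested kidney. Of 6 endothelial genes 4 lay above 0 and 2 below, Emcn at -0.23 and Tek at -0.30. The groups did not overlap for 2 of the 6, Cdh5, at 0.80, and Pecam1, at 0.40. Over all genes tested, 6.49% did not overlap. These values are given as descriptions, with no explanation.

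The remaining genes of the naming rule had log2 fold changes of -0.51 for Aqp6, -0.22 for Foxi1, -0.51 for Bst1, -1.03 for Aqp4, 0.42 for Vcam1, 0.51 for Spp1, 2.44 for Msr1, 0.81 for Adgre1, 2.30 for Csf3r, 2.10 for Mmp9, 0.19 for Synpo and 0.20 for Nphs1, and edgeR called 0 of them. These genes do not stand for their whole lists. Of 7 macrophage genes 5 lay above 0 and 2 below, C1qa at -0.21 and C1qb at -0.17. Of 8 tubular injury genes only Vcam1 and Spp1 lay above 0, and 6 lay below. For 3 leukocyte genes the estimate fell when congested replicate 1 alone was left out, in the fit without the block. It was then 0.52 for Msr1, 0.35 for Csf3r and 0.50 for Mmp9, and over single libraries left out Mmp9 reached 4.82. With a replicate number left out of both groups, under the block, Msr1 ranged from 0.83 to 2.53. Csf3r then ranged from 2.22 to 2.26 and Mmp9 from 1.96 to 2.31.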
